A study of Mus musculus with 8 samples.

Results

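The immediate early and acute stress genes described here are Fos, Fosb, Jun, Junb, Atf3, Egr1, Ier2, Ier3, Dusp1 and Zfp36. They were found on the arrays by gene symbol: every probe set annotated with 1 symbol, and that symbol one of these names, was kept. The 10 genes had 11 probe sets, of 12394 genes and 22690 probe sets in all, with Jun alone read by more than 1 probe set. Whole skin of newborn FVB mice was measured in 4 genotypes. These were skin without pRb and p53 (pRb-/-;p53-/-, called double_null), skin without pRb (pRb-/-;p53+/+, pRb_null), skin without p53 (pRb+/+;p53-/-, p53_null), and skin labelled only as control. Each genotype had 2 arrays, and each array held RNA pooled from 3 animals of 1 genotype. The p-values therefore measure the spread between pools, and the spread between single mice was not measured. The series title places the inactivation in stratified epithelia, while whole skin also holds dermal, vascular, fat and blood cells. The promoter that drove the deletion, and what the control mice carried, are not given in the sources used here. Skin was put in a preservative for RNA before extraction, and the time between death and preservation is likewise not given.

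Immediate early genes are transcribed within minutes of a signal because the transcription factors that switch them on, such as serum response factor and CREB, are already present in the resting cell. Fos, Fosb, Jun and Junb encode subunits of AP-1, a dimeric factor with leucine zippers, and Atf3 encodes a stress-induced factor of the same wider family. Egr1 encodes a zinc finger factor. Dusp1 and Zfp36 encode brakes on the response: DUSP1 is a phosphatase that inactivates MAP kinases, and ZFP36 (tristetraprolin) speeds the decay of messengers with AU-rich elements. In epidermis these genes respond to wounding, ultraviolet light and growth factors, and tissue handling and dissection are known to induce them too.

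The values are standardized scores: each probe set has mean 0 and SD 1 over the 8 arrays. A score tells how far an array lies from that probe set's mean. It holds no expression level, so no fold change can be given and levels of different genes cannot be compared. Differences below are in units of the SD of a probe set over the 8 arrays, from a limma fit over all 22690 probe sets, with p-values adjusted by Benjamini-Hochberg over all of them. A gene was called where the adjusted p was under 0.05, and an unadjusted p under 0.05 is called the nominal threshold. Each array was most similar to the other array of its genotype, with r between 0.118 and 0.337 over all probe sets. Since scores hold no level, whether keratinocyte markers were present, or markers of other cells absent, could not be checked. In whole skin, fewer cells of a type and less RNA per cell cannot be told apart.

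Promoter sequences are shown for 4 members, the pair called in double_null skin (Dusp1 and Ier3) and the others that hold a searched motif (Fosb and Zfp36). They are the 250 bases before the annotated start, from RefSeq on build GRCm38.p6, on the gene's own strand. Of the 10 genes, 8 had an entry, and Egr1 and Ier2 had none. The Dusp1 window is chr17:26508473-26508722 on the minus strand, and its capitals mark the cAMP response element. The Ier3 window is chr17:35821463-35821712 on the plus strand. For Fosb, chr7:19310046-19310295 on the minus strand, capitals mark the EGR motif. For Zfp36, chr7:28379229-28379478 on the minus strand, capitals mark the EGR motif and then the CArG box, the element that serum response factor binds.
Dusp1: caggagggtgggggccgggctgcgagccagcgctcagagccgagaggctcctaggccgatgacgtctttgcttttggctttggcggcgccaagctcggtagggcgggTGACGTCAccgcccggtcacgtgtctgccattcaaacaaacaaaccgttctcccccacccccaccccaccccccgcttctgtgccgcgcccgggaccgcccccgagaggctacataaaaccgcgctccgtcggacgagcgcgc
Ier3: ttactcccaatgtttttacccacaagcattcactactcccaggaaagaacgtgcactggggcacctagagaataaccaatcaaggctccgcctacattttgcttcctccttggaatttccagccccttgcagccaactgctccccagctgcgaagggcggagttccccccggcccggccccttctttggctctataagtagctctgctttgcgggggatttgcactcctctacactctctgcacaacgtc
Fosb: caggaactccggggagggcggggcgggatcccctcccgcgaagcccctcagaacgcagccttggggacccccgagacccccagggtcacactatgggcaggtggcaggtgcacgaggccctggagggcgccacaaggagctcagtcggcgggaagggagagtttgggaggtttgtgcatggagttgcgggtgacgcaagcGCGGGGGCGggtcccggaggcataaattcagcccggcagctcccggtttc
Zfp36: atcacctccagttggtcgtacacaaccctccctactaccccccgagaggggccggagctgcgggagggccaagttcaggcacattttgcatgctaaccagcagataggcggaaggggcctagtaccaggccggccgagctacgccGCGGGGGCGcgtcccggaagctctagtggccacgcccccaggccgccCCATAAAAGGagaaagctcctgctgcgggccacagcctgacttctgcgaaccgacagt
Both strands were searched, and the motifs do not overlap. The element TGACGTCA lay 143 to 136 bases before the start of Dusp1 and was found in 1.55% of the 32851 promoters of the same length. GCGGGGGCG lay 50 to 42 bases before the start of Fosb and 105 to 97 bases before that of Zfp36, and 2.57% of all promoters hold it. A CArG box lay 58 to 49 bases before the start of Zfp36 and was found in 1.47% of all promoters. The AP-1 motifs TGACTCA and TGAGTCA were in 4.46% of all promoters and in 0 of the 8 member windows. The median GC content was 65.0% over the 8 member promoters and 52.4% over all promoters. A match describes these letters in this window and is not a measured binding site. Bases further upstream and variants of these letters were not searched, so a window without a match does not show that a gene lacks such a site.

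Over the genotypes, 2 patterns covered most of the 11 probe sets. In the first, both double_null arrays lay above the other 6 arrays: this held for Fos, 1 Jun probe set, Atf3, Ier2, Ier3 and Dusp1. Those are 6 of 11 probe sets, against 7.84% of all probe sets. In the second, both p53_null arrays lay below the other 6 arrays: this held for Fosb, Junb, Egr1, Ier2 and Zfp36, 5 of 11, against 7.78% of all probe sets. Ier2 showed both, and Jun probe set 1417409_at showed neither. Both pRb_null arrays lay above the other 6 for Jun 1417409_at, Junb and Zfp36, 3 of 11, against 7.66% of all probe sets. Both control arrays lay below the other 6 for Ier3 and Dusp1, 2 of 11, against 7.01%. Genotype accounted for a median of 93.3% of the variance of the 11 probe sets, against 61.4% over all probe sets. Averaged over the 10 genes, with Jun read by 1417409_at, the score was 0.87 and 0.53 in double_null skin, 0.29 and 0.31 in pRb_null skin, -0.87 and -0.95 in p53_null skin, and -0.22 and 0.04 in control skin. With Jun read by 1448694_at, a choice added after seeing the data, the mean was 0.93 and 0.77 in double_null skin, 0.23 and 0.07 in pRb_null skin, -0.90 and -0.88 in p53_null skin, and -0.09 and -0.11 in control skin.

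**Figure D1:**
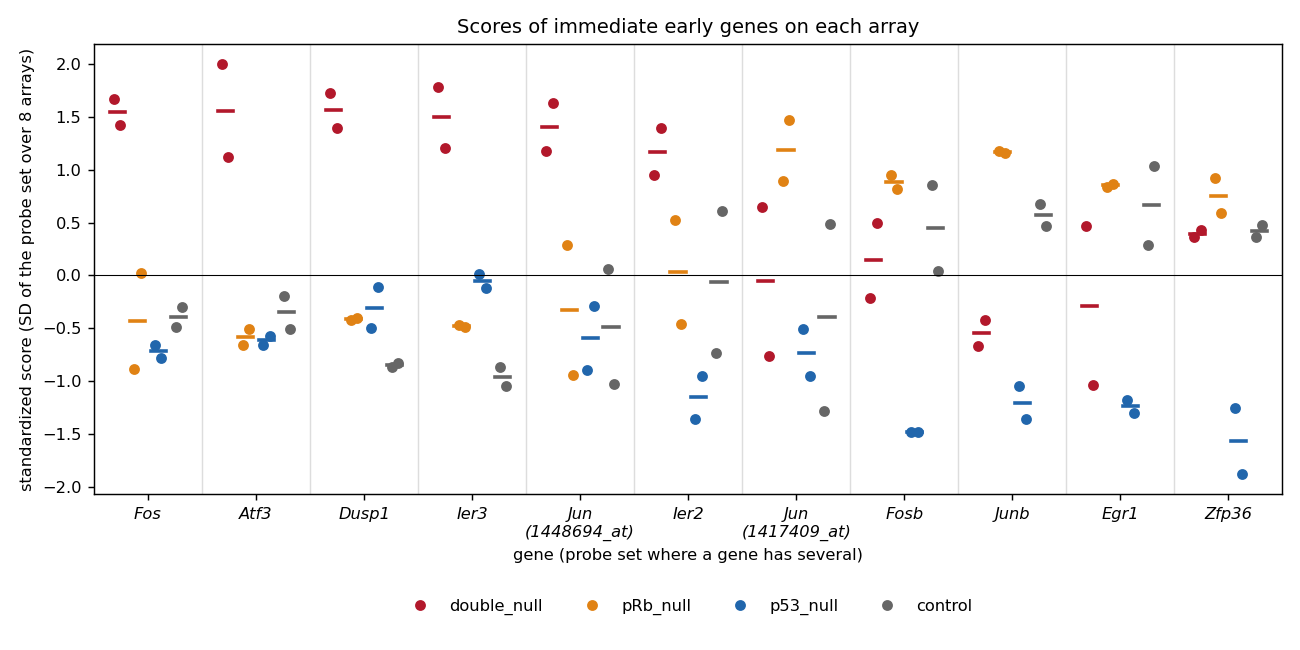
Standardized score (SD units, vertical axis) of each of the 11 member probe sets on the 8 arrays, by genotype, with 1 point per array and a bar at the mean of the pair. Fos, Atf3, Dusp1 and Ier3 stand apart in double_null skin, while Fosb, Junb, Egr1 and Zfp36 are lowest in p53_null skin.

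The AP-1 subunits did not share 1 pattern. Fos scored 1.67 and 1.43 in double_null skin, -0.89 and 0.02 in pRb_null skin, -0.66 and -0.78 in p53_null skin, and -0.49 and -0.30 in control skin. Both double_null arrays were above all others. The pRb_null arrays overlapped those of p53_null and of control skin, and both p53_null arrays lay below both control arrays. The Fos difference was 1.94 ± 0.34 (SE) for double_null against control, 1.99 ± 0.34 against pRb_null and 2.27 ± 0.34 against p53_null. The adjusted p-values were 0.11, 0.12 and 0.19, so Fos was not called, although each difference passed the nominal threshold.

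Fosb, the close relative of Fos, scored -0.21 and 0.50 in double_null skin, 0.95 and 0.82 in pRb_null skin, -1.48 and -1.48 in p53_null skin, and 0.86 and 0.04 in control skin. Its p53_null arrays were the lowest and the other genotypes spread between -0.21 and 0.95. For p53_null, Fosb differed by -1.93 ± 0.39 from control (adjusted p = 0.18) and by -2.37 ± 0.39 from pRb_null (adjusted p = 0.15). For double_null against p53_null its difference was 1.63 ± 0.39 (adjusted p = 0.30).

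Junb, an AP-1 subunit that in mouse epidermis restrains proliferation and cytokine output, was the member most sharply split by genotype. It scored -0.67 and -0.42 in double_null skin, 1.18 and 1.16 in pRb_null skin, -1.05 and -1.36 in p53_null skin, and 0.68 and 0.47 in control skin. All 4 genotypes were separated, in the order pRb_null, control, double_null, p53_null from high to low. Genotype accounted for 98.6% of its variance. The Junb difference was -1.12 ± 0.16 for double_null against control (adjusted p = 0.084), 0.60 ± 0.16 for pRb_null against control (adjusted p = 0.36) and -1.78 ± 0.16 for p53_null against control (adjusted p = 0.085). It was -1.72 ± 0.16 for double_null against pRb_null (adjusted p = 0.060), 0.66 ± 0.16 for double_null against p53_null (adjusted p = 0.30) and -2.38 ± 0.16 for p53_null against pRb_null (adjusted p = 0.079). In limma's test without moderation Junb therefore passed the nominal threshold in all 6 pairs of genotypes and was called in none. limma's moderated test gave an unadjusted p of 0.17 for double_null against control. That p was 0.46 for pRb_null against control and 0.42 for double_null against p53_null, and under 0.05 in the remaining pairs. Quantile normalization also took pRb_null against control and double_null against p53_null out of the nominal threshold.

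Jun, the partner of the Fos proteins in AP-1, was read by a pair of probe sets that disagreed (r = -0.21 over the 8 arrays). Probe set 1448694_at scored 1.18 and 1.63 in double_null skin, 0.29 and -0.94 in pRb_null skin, -0.90 and -0.29 in p53_null skin, and 0.06 and -1.03 in control skin. Probe set 1417409_at scored 0.65 and -0.76 in double_null skin, 0.90 and 1.47 in pRb_null skin, -0.51 and -0.95 in p53_null skin, and -1.28 and 0.49 in control skin. On 1448694_at the double_null arrays were the highest, and on 1417409_at the pRb_null arrays were. The difference on 1448694_at was 1.90 ± 0.64 for double_null against control (adjusted p = 0.25) and 2.00 ± 0.64 against p53_null (adjusted p = 0.39), while 1417409_at missed the nominal threshold in every comparison. No direction is given for Jun as a gene.

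Atf3, which cells induce under many stresses, scored 2.00 and 1.12 in double_null skin, -0.66 and -0.51 in pRb_null skin, -0.66 and -0.57 in p53_null skin, and -0.19 and -0.51 in control skin. The 6 arrays of the other genotypes lay within a narrow band, and both double_null arrays were far above it. The Atf3 difference was 1.91 ± 0.34 for double_null against control, 2.14 ± 0.34 against pRb_null and 2.18 ± 0.34 against p53_null, with adjusted p-values of 0.11, 0.11 and 0.19.

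Egr1 scored 0.47 and -1.04 in double_null skin, 0.84 and 0.87 in pRb_null skin, -1.18 and -1.30 in p53_null skin, and 0.29 and 1.04 in control skin. The p53_null arrays were the lowest, but the double_null pair was wide apart and its lower array came close to them. Its difference was -1.90 ± 0.60 for p53_null against control (adjusted p = 0.30) and -2.09 ± 0.60 for p53_null against pRb_null (adjusted p = 0.24).

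Of the feedback regulators, Dusp1 scored 1.73 and 1.40 in double_null skin, -0.42 and -0.40 in pRb_null skin, -0.50 and -0.11 in p53_null skin, and -0.87 and -0.83 in control skin. Double_null arrays were the highest, control arrays the lowest, and the single mutants lay between and overlapped each other. Dusp1 was higher in double_null than in control skin by 2.42 ± 0.18, with an adjusted p of 0.036 in limma's test. Against pRb_null and p53_null skin its difference was 1.97 ± 0.18 (adjusted p = 0.060) and 1.87 ± 0.18 (adjusted p = 0.12). For p53_null against control it was 0.55 ± 0.18 (adjusted p = 0.31).

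Ier3, a small stress-inducible protein that affects cell survival, had the same order. It scored 1.79 and 1.21 in double_null skin, -0.47 and -0.49 in pRb_null skin, 0.01 and -0.12 in p53_null skin, and -0.87 and -1.05 in control skin. All 4 genotypes were separated, with double_null highest and control lowest. Ier3 was higher in double_null than in control skin by 2.46 ± 0.22 (adjusted p = 0.045). Its difference was 1.98 ± 0.22 for double_null against pRb_null (adjusted p = 0.075), 1.56 ± 0.22 for double_null against p53_null (adjusted p = 0.18) and 0.90 ± 0.22 for p53_null against control (adjusted p = 0.23). Of 15 alternative settings, 2 kept the double_null against control call of Dusp1 and of Ier3, the settings that tested 1 value per gene. Leaving out any 1 of the 8 arrays ended both calls. Over the 15 settings the adjusted p ranged from 0.031 to 0.34 for Dusp1 and from 0.040 to 0.37 for Ier3, and both passed the nominal threshold in all 15.

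Zfp36 scored 0.36 and 0.43 in double_null skin, 0.92 and 0.59 in pRb_null skin, -1.26 and -1.88 in p53_null skin, and 0.36 and 0.48 in control skin. Double_null and control skin overlapped, pRb_null skin was slightly above both, and p53_null skin was far below all of them. The Zfp36 difference was -1.99 ± 0.25 for p53_null against control (adjusted p = 0.10), 1.97 ± 0.25 for double_null against p53_null (adjusted p = 0.17) and -2.32 ± 0.25 for p53_null against pRb_null (adjusted p = 0.10). Ier2, a nuclear protein of the early response, scored 0.95 and 1.40 in double_null skin, 0.53 and -0.46 in pRb_null skin, -1.36 and -0.95 in p53_null skin, and -0.73 and 0.61 in control skin. It was highest in double_null and lowest in p53_null skin, with wide pairs in the other genotypes. For double_null against p53_null its difference was 2.33 ± 0.63 (adjusted p = 0.33).

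**Figure D2:**
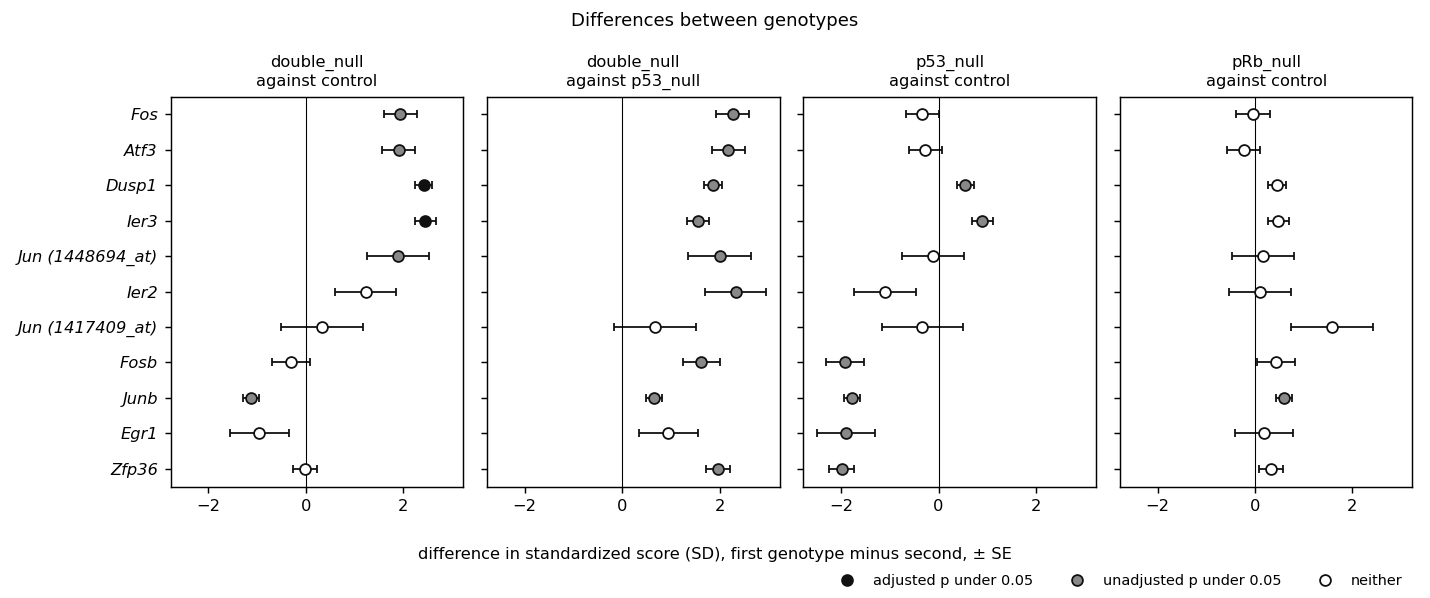
Difference in standardized score (SD units, ± SE, horizontal axis) of the 11 probe sets for double_null against control, double_null against p53_null, p53_null against control and pRb_null against control, with the first-named genotype minus the second. Black points, at an adjusted p under 0.05, are Dusp1 and Ier3 in double_null against control, and all points of double_null against p53_null are above 0.

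The comparisons share arrays, so the counts that follow are not independent of each other. For double_null against control, 2 of 11 probe sets were called, Dusp1 and Ier3, both higher, against 0.322% of all probe sets called higher and 0.846% called in either direction. Past the nominal threshold, 5 were higher (Fos, Jun 1448694_at, Ier3, Dusp1 and Atf3), against 8.77% of all probe sets, and 1 was lower (Junb), against 9.91%. The median difference of the 11 was 1.23, against -0.01 over all probe sets. limma's moderated test, which borrows spread across probe sets, called 0 probe sets in every comparison, members included, and it also recovered no changes in simulated scores. For this comparison it left 5 of 11 members past the nominal threshold, and 21.7% of all probe sets.

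For pRb_null against control, 0 members were called by limma without moderation, as were 0% of all probe sets. Junb alone passed the nominal threshold, on the higher side, where 6.44% of all probe sets were. The genotypes did not overlap for 5 of 11 members, all higher, against 22.7% of all probe sets on the higher side. The median difference was 0.33, against 0.07 over all probe sets, and 9 of 11 members were above 0, against 52.3%.

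For p53_null against control, 0 members were called, against 0.119% of all probe sets. Past the nominal threshold, 4 were lower (Fosb, Junb, Egr1 and Zfp36), against 7.23% of all probe sets, and 2 were higher (Ier3 and Dusp1), against 7.38%. Egr1 missed that threshold with array medians set to 0 and with the replicate block, and Ier3 missed it with the moderated test. Dusp1 missed it with both of the settings named for Egr1, the moderated test, quantile normalization and only the groups compared. Fosb, Junb and Zfp36 passed it in each of these settings. Without the second control array, 3 members in all passed the nominal threshold, against 6 with all arrays. The median difference was -0.33, against -0.15 over all probe sets.

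For double_null against p53_null, 0 members were called, against 0.0353% of all probe sets. All 11 differences were above 0, as were 51.0% over all probe sets, and 9 passed the nominal threshold, against 5.99% of all probe sets on the higher side. Without the second p53_null array 5 did. The arrays of the genotypes did not overlap for 10 of 11 members, against 24.3% of all probe sets on the higher side. The median difference was 1.87, against 0.03 over all probe sets. Members of both patterns enter this comparison, since one set was high in double_null skin and the other low in p53_null skin.

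For double_null against pRb_null, 0 members were called, against 0.405% of all probe sets. Past the nominal threshold, 4 were higher (Fos, Ier3, Dusp1 and Atf3), against 7.71% of all probe sets, and 1 was lower (Junb), against 10.9%. The genotypes were separated for all 11, 6 higher and 5 lower, where 50.1% of all probe sets did not overlap. For p53_null against pRb_null, 0 members were called, against 0.0573% of all probe sets, and Fosb, Junb, Egr1 and Zfp36 were lower past the nominal threshold, 4 of 11, against 9.41%. The median difference there was -1.19, against -0.26 over all probe sets.

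Whether the effect of losing both proteins differed from the sum of the single losses was asked with an interaction term, in which a positive value means a higher score in double_null skin than the single losses add up to. Of the members 0 were called, as were 0% of all probe sets. Past the nominal threshold there were 5 positive members, against 4.46% of all probe sets. The term was 2.41 ± 0.48 for Atf3 (adjusted p = 0.32), 2.31 ± 0.48 for Fos (adjusted p = 0.33), 1.64 ± 0.36 for Zfp36 (adjusted p = 0.33), 1.42 ± 0.26 for Dusp1 (adjusted p = 0.31) and 1.08 ± 0.31 for Ier3 (adjusted p = 0.40). For Zfp36 the term rests on scores in double_null skin like those in control skin, beside low scores in p53_null skin. With the moderated test 1 member, Atf3, passed the nominal threshold, and 9.92% of all probe sets did.

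Correlations between members over the 8 arrays are given as a description, and they mostly restate the order of the 4 genotypes, since arrays of 1 genotype lie close. Among genes high in double_null skin, Dusp1 and Ier3 had r = 0.98, Fos and Atf3 0.95, Atf3 and Dusp1 0.93, and Fos and Dusp1 0.91. Among genes low in p53_null skin, Fosb and Zfp36 had r = 0.93, Fosb and Junb 0.88, Junb and Egr1 0.83, and Junb and Zfp36 0.81. Ier2, which showed both patterns, had lower r with members of each, from 0.49 (Ier3) to 0.70 (Fos) in one set and from 0.20 (Junb) to 0.67 (Zfp36) in the other. Between the sets Junb and Ier3 had r = -0.54. Fos and Fosb, which encode related proteins, had r = 0.18.

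**Figure D3:**
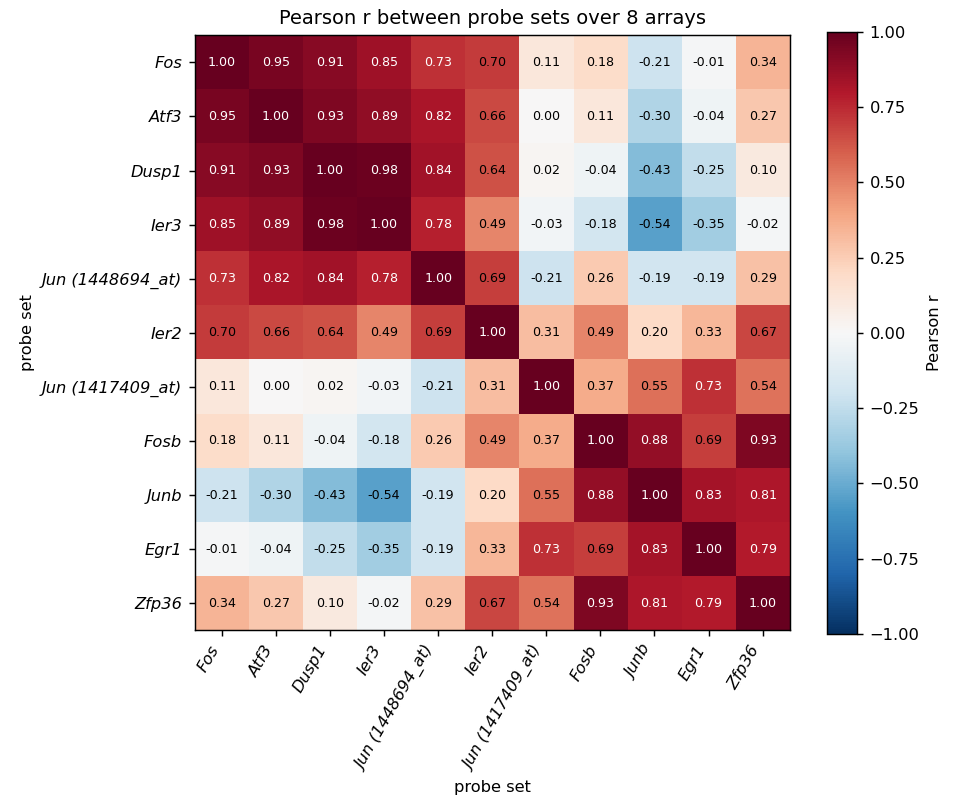
Pearson r between the scores of the 11 member probe sets over the 8 arrays (colour and printed value, probe sets on both axes). Fos, Atf3, Dusp1 and Ier3 form 1 block of high r, and Fosb, Junb, Egr1 and Zfp36 another.

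Among the 12384 other genes, the pattern most like each member was found by r over the 8 arrays. Each r is thus the highest of 12384, and a search of that size over 8 arrays can yield high values by itself. Whether these genes share regulation with the members was not tested. For Ier3 this was Il1f6, an epidermal cytokine of the interleukin-1 family, with r = 0.9954. Il1f6 scored 1.85 and 1.20 in double_null skin, -0.40 and -0.65 in pRb_null skin, -0.05 and -0.21 in p53_null skin, and -0.75 and -0.98 in control skin. For Fos it was Cav2 (r = 0.976), a caveolin, for Dusp1 it was Cars (r = 0.985), a transfer RNA synthetase, and for Atf3 it was AI506816 (r = 0.99). For Junb it was Gjb6 (r = 0.979), a connexin of the epidermis, for Fosb Zfr2 (r = 0.971), for Zfp36 Pkdrej (r = 0.99), for Egr1 Ano10 (r = 0.968), for Ier2 Gpt (r = 0.977) and for Jun probe set 1417409_at Mid1ip1 (r = 0.918). The genes most like the mean of the members were Nnat, Krt77, Eml5, Ifi27l2a and Pck1, with r from 0.981 to 0.991.

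Of 40 other immediate early genes, 37 were measured, with 1 probe set each. Ccn1, a matrix protein encoded by an early target of growth factors, was called and was the highest in double_null skin. It scored 1.76 and 1.46 in double_null skin, -0.46 and -0.71 in pRb_null skin, -0.37 and -0.53 in p53_null skin, and -0.62 and -0.52 in control skin. Ccn1 was higher in double_null than in control skin by 2.18 ± 0.15 (adjusted p = 0.033) and than in pRb_null skin by 2.19 ± 0.15 (adjusted p = 0.044). Leaving out any 1 array ended both calls, with the adjusted p between 0.027 and 0.34 over 15 settings against control and between 0.036 and 0.35 against pRb_null. The list as a whole was mixed in double_null against control, with a median difference of 0.23, against -0.02 over all genes. Past the nominal threshold 5 genes were higher and 7 lower, against 8.77% and 9.91% of all probe sets.

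In p53_null against control skin 0 of the 37 were called by limma. Past the nominal threshold, 0 were higher and 7 lower, against 7.38% and 7.23% of all probe sets. The median was -0.74, against -0.20 over all genes. The smallest p-values belonged to Errfi1, a feedback inhibitor of the EGF receptor (-1.16 ± 0.19, adjusted p = 0.15), Ier5 (-1.55 ± 0.37, adjusted p = 0.22) and Trib1 (-2.04 ± 0.52, adjusted p = 0.24). In double_null against p53_null skin 6 were higher and 0 lower past the nominal threshold, against 5.99% and 5.91% of all probe sets. The median was 0.64, against 0.09 over all genes. The smallest p-values there belonged to Ccn1 (2.06 ± 0.15, adjusted p = 0.090), the orphan nuclear receptor gene Nr4a1 (2.39 ± 0.27, adjusted p = 0.14) and Klf2 (2.45 ± 0.38, adjusted p = 0.20).

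Other stress programs were set beside the members, because handling of tissue can move several of them together. For double_null against control, 8.77% of all probe sets were higher and 9.91% lower past the nominal threshold, for comparison with each list below. Of 14 measured heat shock genes, 0 were called in double_null against control skin, with 1 higher and 4 lower past that threshold. Their median was -1.07, and Dnajb1, a co-chaperone, had a difference of -2.32 ± 0.44 (adjusted p = 0.12). Next by p were Hsph1, with -1.60 ± 0.42 (adjusted p = 0.18), and Dnaja1, with -1.93 ± 0.56 (adjusted p = 0.20). Hspa1a, not among the smallest p-values, went the other way, with scores of 1.04 and 1.43 in double_null skin and 0.25 and -1.14 in control skin. Of 12 glucocorticoid response genes 0 were called, with 0 higher and 5 lower at that threshold and a median of -0.99. The metallothionein gene Mt2 had a difference of -2.12 ± 0.28 (adjusted p = 0.077). Errfi1, which is also among the other immediate early genes, had -1.67 ± 0.19 (adjusted p = 0.064). These medians ran opposite to that of the members.

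Of 16 genes of the integrated stress and unfolded protein responses 0 were called, with 0 higher and 2 lower and a median of 0.06. Chac1, a glutathione-degrading enzyme, had -2.39 ± 0.24 (adjusted p = 0.055). Of 20 NF-kB targets and cytokines 0 were called, with 3 higher and 2 lower and a median of 0.47. Ptgs2, the inducible cyclooxygenase, scored 1.80 and 1.30 in double_null skin and -0.47 and -0.81 in control skin (difference 2.19 ± 0.24, adjusted p = 0.062). Cebpb, next by p, was lower, with -1.86 ± 0.34 (adjusted p = 0.12). Of 12 hypoxia genes, Bnip3, a mitophagy receptor, was called higher in double_null skin by 2.21 ± 0.17 (adjusted p = 0.037), and the list's median was 0.84. Leaving out any 1 array ended this call, with the adjusted p between 0.032 and 0.35 over 15 settings. Of 15 MAP kinase cascade and serum response factor cofactor genes 0 were called, with 5 higher and 2 lower and a median of 1.24. Mrtfa, a cofactor of serum response factor, had -2.21 ± 0.32 (adjusted p = 0.090). Next by p were Map2k2, with -2.34 ± 0.41 (adjusted p = 0.11), and Rps6ka3, with 2.19 ± 0.59 (adjusted p = 0.18). Whether handling differed between the genotypes was not tested.

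**Figure D4:**
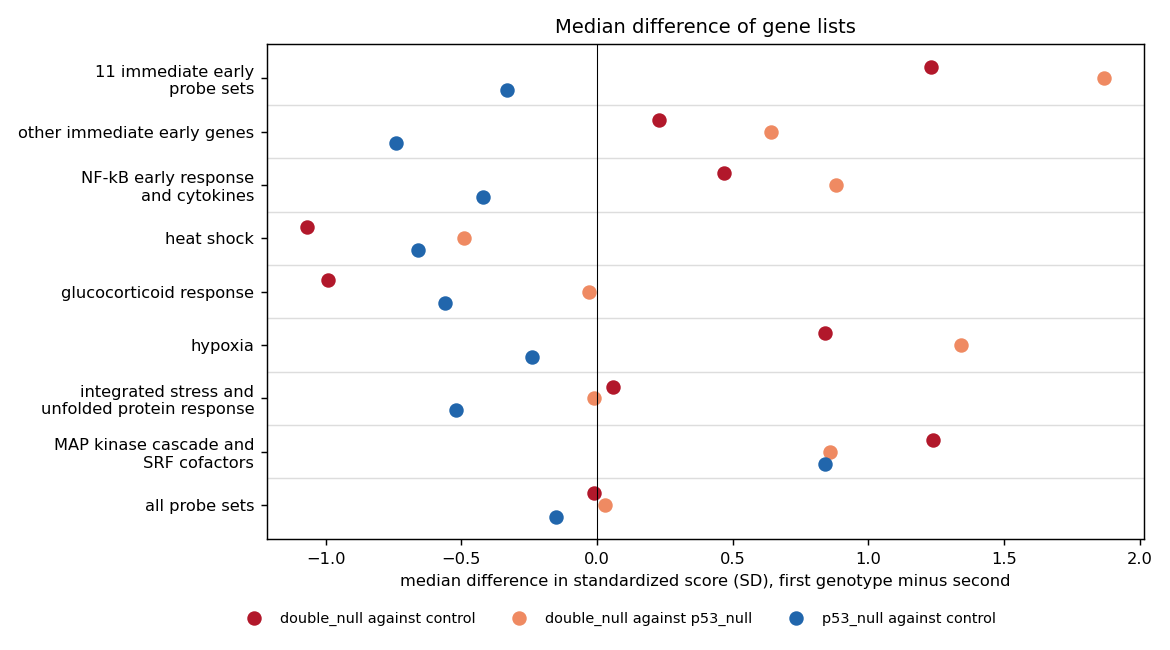
Median difference in standardized score (SD units, horizontal axis) of the 11 member probe sets and of each list of early response and stress genes, by comparison, with the median of all probe sets in the bottom row. In double_null against control the members' median is 1.23, while those of heat shock (-1.07) and glucocorticoid response genes (-0.99) are below 0. The other lists are above 0: MAP kinase cascade and cofactors 1.24, hypoxia 0.84, NF-kB 0.47, other immediate early genes 0.23, and integrated stress 0.06.

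Markers of other skin cells are given beside the members, since they too differed between these genotypes. The mean score of 11 macrophage and myeloid markers was 1.22 and 0.82 in double_null skin, -0.41 and -0.43 in pRb_null skin, -0.25 and -0.21 in p53_null skin, and -0.63 and -0.11 in control skin. Both double_null arrays were the highest, as for Fos, Atf3, Dusp1 and Ier3, and the order of the other genotypes differed from that of each of these genes. In double_null against control 5 of 11 were higher past the nominal threshold, against 8.77% of all probe sets. Of the 11 markers 0 were called, and their median was 1.57. Of 7 neutrophil markers 1 was called, S100a8, higher by 2.23 ± 0.08 (adjusted p = 0.017), though keratinocytes also express it in hyperplastic or inflamed epidermis. The mean of 6 endothelial markers was 0.96 and 0.26 in double_null skin and -0.84 and -0.52 in control skin.

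The mean of 5 adipocyte markers was 1.00 and 0.56 in double_null skin, 0.58 and 0.74 in pRb_null skin, -1.29 and -1.52 in p53_null skin, and -0.18 and 0.10 in control skin. The p53_null arrays were the lowest, as for Fosb, Junb, Egr1 and Zfp36. For p53_null against control 4 of 5 were lower past the nominal threshold, against 7.23% of all probe sets, and 0 were called. The mean of 7 mast cell markers was 1.03 and 0.78 in p53_null skin, against -0.88 and -0.56 in control skin. Hair follicle genes ran the other way to Dusp1 and Ier3. Of the 8, 6 were called lower in double_null than in control skin, against 0.524% of all probe sets. Leaving out any 1 array ended these 6 calls and that of S100a8, while all 7 passed the nominal threshold in each of the 15 settings. The mean of 9 keratinocyte markers was 0.37 and -0.51 in double_null skin and 0.26 and 0.37 in control skin. The part of each cell type in the members' scores was not tested.

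The control probe sets for Actb and Gapdh, which read the 5′ end, the middle and the 3′ end of each transcript, also separated the control arrays. For 5 of these 6 probe sets both double_null arrays were above both control arrays, with a median difference of 1.45. The same held in 5 of 6 for pRb_null, with a median of 2.37, and in 5 of 6 for p53_null, with a median of 1.70. Dusp1 and Ier3 were likewise lowest in control skin. For double_null against pRb_null the median difference of the 6 probe sets was -0.84, and Dusp1 and Ier3 differed by 1.97 and 1.98. The 45 bacterial and phage control probe sets do not read skin transcripts. Of these, 17 were higher and 4 lower in double_null than in control arrays without overlap. The counts were 18 and 8 in pRb_null arrays, and 19 and 2 in p53_null arrays. Over all probe sets, 25.1% were higher and 26.1% lower in double_null than in control arrays without overlap. For pRb_null arrays these shares were 22.7% and 18.4%, and for p53_null arrays 23.8% and 28.9%. The part of RNA quality and of array processing in the members' scores was not tested. Between double_null and p53_null skin the median difference of the 6 Actb and Gapdh probe sets was -0.04 and that of the 45 was -0.37, and the differences of the 11 members lay between 0.66 and 2.33.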

How the data were processed

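The authors deposited 1 value table, from mouse microarrays. The submitters' processing notes name RMA alone, with no version. Tested on the file, each probe set has mean 0 and SD 1, so the deposited values are a standardized score, and no source used here states whether logarithms came before. Gene symbols came from the platform annotation: 20393 probe sets had 1 symbol, 691 several and 1606 none. Signal over background cannot be seen in scores, and 2 arrays per genotype limit the precision.

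A linear model over all probe sets came from limma 3.58.1 in R 4.3.3 (all 8 arrays, 1 mean per genotype, 4 residual degrees of freedom), two-sided, and adjusted by Benjamini-Hochberg within each comparison. limma's test without moderation was used because standardized rows tie the variances of probe sets together. It was tested on simulated data, with independent noise and 200 of 22690 probe sets changed in double_null. There it recovered all of the largest changes and few of the smallest, with 12 false calls for double_null against control. The moderated test recovered none there. The deposited scores may differ from that simulation, so its counts of 0 calls and the calls lost under it do not settle stability. The members, the lists and the test were chosen with earlier results of these data known. Where several probe sets read a gene, lists and likeness used 1, chosen by suffix (_at, _a_at, _s_at, _x_at), then by lowest identifier. All member probe sets are described. From a list, the genes called were named in each comparison shown or, where none was, up to 3 with the smallest p. Hspa1a was named outside this rule. Alternatives were the moderated test, quantile normalization, array medians set to 0, a replicate block, only the groups compared, 1 probe set per gene, gene means over probe sets, and leaving out each array.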

Additional observations from a re-analysis of the deposited data

How the results depend on the processing

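Over 36 differences of single members and 531 refits, 505 kept their direction and their side of an adjusted p of 0.05, 26 lost the call and 0 reversed. The 36 were picked because they passed the nominal threshold in the fit described above, so reversals were unlikely from the start. Apart from Dusp1 and Ier3 in double_null against control, none of the 36 was called in that fit. For those, keeping their side means that they stayed uncalled. The 26 are Dusp1 and Ier3 in double_null against control. After array medians were set to 0, 205 of all probe sets were called there, against 192 as deposited, so the members lost their calls without a fall in the total. Members called there numbered 2, and 0 with the moderated test, quantile normalization, array medians set to 0, the replicate block, or only the groups compared. Leaving out 1 array gave 0 to 0. All probe sets called there numbered 192, and 0 moderated, 1 with quantile normalization, 0 with the block, 0 with only the groups compared, 125 genes with 1 probe set per gene and 118 with gene means (1 to 8 leaving out an array). For p53_null against control 27 were called, and in the same order 0, 0, 0, 0, 17 and 15, with 5 after array medians were set to 0 (0 to 5 leaving out an array). For double_null against pRb_null 92 were called, and 0 moderated, 1 with quantile normalization, 0 with the block and 0 with only the groups compared (0 to 6). For double_null against p53_null 8 were called, and 0, 1, 0, 0, 5 and 17, with 4 after centring (0 to 1). For p53_null against pRb_null 13 were called, and 0 moderated, 0 with quantile normalization, 0 with the block, 0 with only the groups compared, 24 with gene means and 7 after centring (0 to 0). For pRb_null against control 0 were called, and 3 with 1 probe set per gene (0 to 1), and for the interaction 0 (0 to 1).

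Members at an unadjusted p under 0.05 in pRb_null against control numbered 1, and 0 moderated, 0 with quantile normalization, 0 after centring, 3 with only the groups compared and 2 with gene means (0 to 2 leaving out an array). In p53_null against control they numbered 6, and 3 to 6 leaving out an array. In double_null against p53_null they numbered 9 (5 to 9), and for the interaction 5, and 1 moderated. The replicate numbers do not pair the pools: same-numbered deviations correlated between -0.163 and 0.197 over the 6 pairs of genotypes, so the block rests on shared numbers alone. Centring moved the median of all probe sets in p53_null against pRb_null to -0.03, against -0.26 as deposited. The cause of these changes was not tested.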
